A study of Mus musculus with 2 samples.

Results

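Nr4a1, Nr4a2, Nr4a3, Egr1, Egr2, Egr3 and Cd69 are genes that T cells switch on within hours of antigen receptor (TCR) signalling. These 7 genes were listed by name out of the 28009 genes of the count matrices of splenic and small intestinal (SI) IL-10-producing CD4+ T cells. Cells came from IL-10eGFP Foxp3mRFP double reporter mice of 8 to 16 weeks, in which IL-10 transcription is marked by eGFP and Foxp3 by mRFP. Every mouse had received 2 intraperitoneal injections of 15 µg anti-CD3, on day 0 and day 2, and was killed 4 h after the second injection. IL-10eGFP+ CD4+ T cells, with Foxp3+ cells included, were sorted from each organ and captured on the 10x Genomics platform as 1 library per tissue. For the intestine of mice the authors describe warm EDTA incubation, collagenase digestion and a Percoll gradient. They describe no such steps for the spleen. How many mice contributed to a library is not given in the sources used here, and no library from mice without anti-CD3 was analysed here, so the levels describe cells after receptor ligation and not a response against a baseline.

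The TCR works through calcium, Ras and MAP kinase signals that act on transcription factors already present in the cell, and the first genes they induce need no new protein. The Nr4a genes encode orphan nuclear receptors (NUR77, NURR1 and NOR1) whose activity follows their abundance, and they are known in T cells for restraining effector genes and for their part in tolerance, exhaustion and Treg maintenance. The Egr genes encode zinc finger factors: Egr1 is a general immediate early gene, whereas Egr2 and Egr3 are known for anergy and for limiting T cell activation. CD69 is an early surface activation antigen that removes the sphingosine 1-phosphate receptor S1PR1 from the membrane and so holds T cells in tissue, and it is also carried constantly by tissue resident T cells.

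Promoter sequences are shown because the 3 Nr4a genes, members of 1 family, differed unequally between tissues and cell states. RefSeq (GRCm38.p6) gave the window upstream of the start site for 4 of the 7 genes, namely Nr4a1, Nr4a2, Nr4a3 and Egr2, and each window of 250 bases was searched on both strands. Capitals mark the core of the cAMP response element (CRE), TGACG or its complement CGTCA, in Nr4a2 and Nr4a3. In Nr4a1 they mark TGCGTCA, a longer CRE-like element that holds the same core, and in Egr2 the CArG box, which serum response factor binds, and 1 CRE core.
Nr4a1, chr15:101266596-101266845, plus strand: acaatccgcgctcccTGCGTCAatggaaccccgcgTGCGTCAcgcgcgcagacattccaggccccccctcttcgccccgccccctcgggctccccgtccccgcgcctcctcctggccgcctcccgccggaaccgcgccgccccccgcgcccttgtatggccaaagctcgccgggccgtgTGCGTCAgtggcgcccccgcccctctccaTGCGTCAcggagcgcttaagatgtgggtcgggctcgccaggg
Nr4a2, chr2:57124004-57124253, minus strand: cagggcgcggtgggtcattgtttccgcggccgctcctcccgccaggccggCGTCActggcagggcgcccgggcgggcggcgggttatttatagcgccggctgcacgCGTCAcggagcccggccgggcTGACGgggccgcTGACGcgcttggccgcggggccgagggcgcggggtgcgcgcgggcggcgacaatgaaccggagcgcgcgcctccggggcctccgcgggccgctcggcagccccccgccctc
Nr4a3, chr4:48045055-48045152, plus strand: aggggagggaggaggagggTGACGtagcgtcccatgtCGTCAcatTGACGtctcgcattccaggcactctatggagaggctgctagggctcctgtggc
Egr2, chr10:67537797-67537818, plus strand: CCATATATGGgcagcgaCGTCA

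Each of the 3 Nr4a windows held 4 CRE cores, a number reached in 45 of the 32851 mouse windows of the same length (0.137%), whereas at least 1 core was present in 17.8% of windows. For Nr4a3 the stretch printed ends at the first annotated exon and shows 3 of its 4 cores. The TGCGTCA element of Nr4a1 was present in 1.75% of windows. A CArG box was present in 1.47% of windows, in 4 of the 5 windows of Egr2 (3 of them overlap and hold the same box) and in none of the 3 Nr4a windows, and in Egr2 the printed stretch starts 72 bases before a start site. A match describes the letters only. In the GENCODE annotation of GRCm38, Nr4a1 spans chr15:101254269-101274795, Nr4a2 chr2:57106830-57124003, Nr4a3 chr4:48045153-48086447, Egr1 chr18:34859823-34864984, Egr2 chr10:67535475-67542188, Egr3 chr14:70077203-70082614 and Cd69 chr6:129267325-129275436, and no other annotated gene overlaps any of them. The Nr4a1 window lies inside the span of the gene, before a start site further along it.

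The splenic library held 1738 barcodes and 11103530 UMIs (unique molecules counted), and the SI library 1474 barcodes and 5693395 UMIs. After the quality filter and the removal of cells in G2/M, 1468 splenic and 1277 SI cells remained, with a median of 5398 and 3696 UMIs per cell, and the libraries shared 0 barcodes. Levels are given as UMIs per 1000000 of a group (CPM) with the exact Poisson interval, ratios with the exact interval conditional on the UMIs of both groups, and shares of cells after every cell was thinned to 2094 UMIs, with the exact binomial interval. All intervals are at 95% and cover counting error only. Thinning was a single random draw, so values at equal depth also vary with the draw. Expected shares over all draws are given beside some of them. With 1 library per tissue there is no test. A difference between tissues cannot be told apart from a difference between libraries or in how cells were isolated. The sort left no cell class known to lack these genes, so the share of cells that free RNA would mark was not measured, and the lowest cluster of each tissue is given below in its place.

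Of the 7 genes, 5 were higher in the SI and 1 in the spleen. Cd69, the surface marker, was at 87.5 CPM (81.6 to 93.8) in the spleen and 286 CPM (271 to 301) in the SI. Nr4a2 was at 12.2 CPM (10.1 to 14.7) in the spleen and at 128 CPM (118 to 139) in the SI, the widest gap of the group. Nr4a1, the most studied reporter of TCR signal strength, was at 50.2 CPM (45.7 to 55.0) and 126 CPM (116 to 136). These 3 genes had tissue intervals far apart, with the SI higher in each.

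Egr1 was at 49.6 CPM (45.1 to 54.4) in the spleen and 110.5 CPM (101 to 120.1) in the SI. Nr4a3 was scarce, at 6.12 CPM (4.62 to 7.95) and 14.7 CPM (11.5 to 18.5). Egr2 alone ran the other way, with 15.2 CPM (12.8 to 17.9) in the spleen and 6.56 CPM (4.51 to 9.21) in the SI. Egr3 had 1 UMI in each library, below the 3 UMIs that correspond to 0.328 CPM in the spleen and 0.596 CPM in the SI, so no ratio is given for it.

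**Figure D1:**
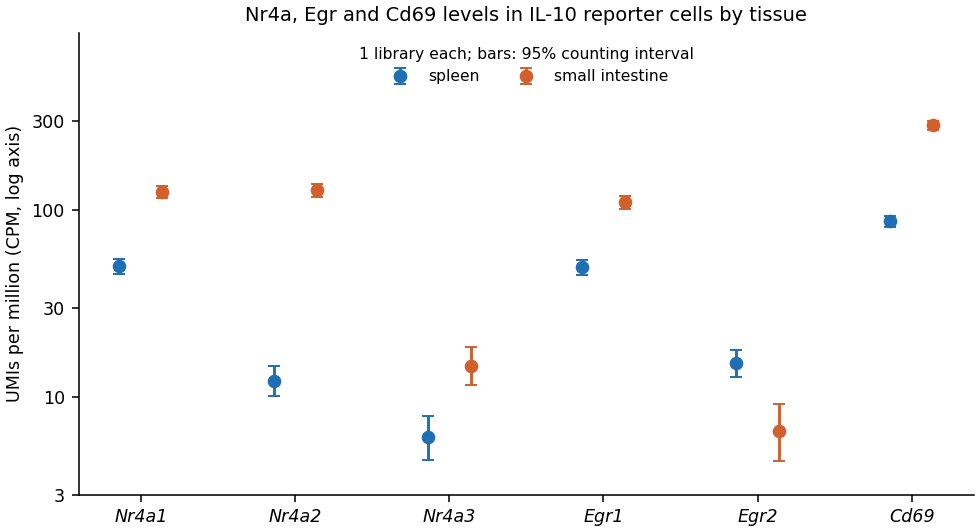
Level of each gene in the 1468 splenic and 1277 SI cells, as UMIs per 1000000 on a log axis, with the 95% counting interval; each point is 1 library. Of the 6 genes plotted, 5 sit higher in the SI, with Nr4a2 furthest apart (12.2 against 128 CPM), and Egr2 sits higher in the spleen (15.2 against 6.56 CPM).

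On the log2 scale, the ratio of spleen over small intestine was -3.39 (-3.69 to -3.10) for Nr4a2, -1.71 (-1.83 to -1.58) for Cd69, -1.33 (-1.50 to -1.15) for Nr4a1, -1.26 (-1.79 to -0.74) for Nr4a3 and -1.16 (-1.34 to -0.97) for Egr1, and 1.21 (0.66 to 1.81) for Egr2. A gene was counted as at least 2-fold apart when it had 50 or more UMIs over both groups, and 6 of the 7 genes had that many. Of those 6, 5 were at least 2-fold lower in the spleen, where 10.4% of the 9032 genes counted were, and 1 was at least 2-fold higher, where 13.6% were. In the single draw at equal depth the Nr4a3 ratio was -0.68, which is below 2-fold. Its expected shares over all draws were 1.52% of splenic and 3.09% of SI cells. The intervals of Nr4a1, Nr4a2 and Cd69 lay wholly beyond 2-fold, and those of Nr4a3, Egr1 and Egr2 did not. The median ratio of the 6 was -1.30, and that of all genes counted was 0.02. The 6 Nr4a and Egr genes summed to 133 CPM in the spleen and 386 CPM in the SI, a log2 ratio of -1.53 (-1.64 to -1.43).

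The direction of each of the 6 genes was the same in the share of cells at equal depth. Of 1438 splenic and 1149 SI cells with at least 2094 UMIs, 20.5% (18.4 to 22.7) and 48.9% (46.0 to 51.8) held a UMI of at least 1 of the 6 Nr4a and Egr genes. Cd69 was found in 15.99% of splenic and 37.7% of SI cells, Nr4a1 in 9.04% and 21.1%, and Egr1 in 9.18% and 18.9%. Nr4a2 was found in 2.43% (1.70 to 3.37) of splenic cells and 19.8% (17.6 to 22.3) of SI cells, and Egr2 in 3.13% (2.29 to 4.16) and 1.04% (0.54 to 1.82). Nr4a3 was found in 2.02% and 3.57% of cells, with intervals that overlapped. Without thinning, in the deeper spleen and the shallower small intestine, the shares for Nr4a1 were 19.0% and 32.6% and for Cd69 29.4% and 52.8%.

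The make-up of the Nr4a and Egr UMIs also differed, a comparison that does not depend on the total UMIs of a library. Of the 1221 splenic UMIs of the 6 Nr4a and Egr genes, 9.17% (7.61 to 10.9) were Nr4a2 and 11.4% (9.66 to 13.3) Egr2. Of the 1942 SI ones, 33.2% (31.1 to 35.4) were Nr4a2 and 1.70% (1.17 to 2.38) Egr2. Nr4a1 held 37.6% (34.9 to 40.4) and 32.6% (30.5 to 34.7), and Egr1 37.2% (34.5 to 40.0) and 28.6% (26.6 to 30.7). These shares compare groups and not genes with each other.

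The summed level of a dissociation and heat shock list was higher in the SI, with most of the gap in Dusp1, and its genes did not share a direction. The list holds none of the 7 genes and no Fos or Jun gene. Whether digestion changed the 7 genes, the Fos and Jun genes or the list itself was not tested. All 6 genes of the dissociation and heat shock list (Hspa1a, Hspa1b, Hsph1, Dnajb1, Atf3 and Dusp1) were detected in both libraries, and their summed level was 225 CPM (215 to 235) in the spleen and 680 CPM (657 to 703) in the SI. The heat shock genes themselves did not follow 1 direction: Dnajb1 was at 57.1 CPM in the spleen and 89.0 CPM in the SI (-0.64, -0.82 to -0.45), Hsph1 at 28.4 and 10.1 CPM, and Hspa1a, which can share reads with its near copy Hspa1b, at 10.8 and 11.5 CPM. The phosphatase gene Dusp1, also a TCR target, was at 127 and 567 CPM, and Hspa1b and Atf3 had fewer than 50 UMIs over both libraries. Myeloid markers summed to 17.6 and 68.8 CPM (Csf1r at 0 in the spleen, Lyz2 at 0 in the SI) and B cell markers to 6.77 and 17.5 CPM (Ms4a1 at 0 in the spleen). Cd8a and Cd8b1 summed to 13.8 CPM in the spleen, where Cd8a was at 0, and to 353 CPM in the SI. The part of these in the tissue difference was not tested. Without the cells that held a B cell or myeloid marker UMI, the log2 ratio of the Nr4a and Egr sum was -1.67, and without those that held a Cd8a or Cd8b1 UMI it was -1.52.

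The other TCR-induced genes were divided between the tissues. The list of these held 42 genes and was drawn up with earlier results of these data known, and 38 had 50 or more UMIs. Of these 38, 12 (31.6%) were at least 2-fold lower in the spleen, where 10.4% of all genes counted were. Another 12 (31.6%) were at least 2-fold higher, where 13.6% were. The median log2 ratio of the 38 was -0.33, against 0.02 for all genes. The lowest ratios were those of the AP-1 gene Fosb (12.5 and 131 CPM, -3.40), of Tnfaip3, which encodes the NF-kB brake A20 (43.6 and 406 CPM, -3.22), and of the AP-1 gene Fos (102 and 444 CPM, -2.13). The highest were those of the cytokine gene Lif (17.4 and 0.199 CPM, 6.45 with an interval of 3.95 to 11.8, from 1 UMI in the SI), of Irf8, an interferon regulatory factor gene (687 and 75.7 CPM, 3.18), and of Spry1, an inhibitor of Ras signalling (36.9 and 4.97 CPM, 2.89). Nab2, added after its value was seen, encodes a corepressor of EGR proteins and is itself an EGR target. It was higher in the spleen like Egr2, at 37.9 and 12.5 CPM (1.60). Egr1 and the sum of the Egr genes (-0.85) were lower there. Nab1, also on the list, differed by less than 2-fold.

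The genes of the CD3 complex, which anti-CD3 binds, differed by less than 2-fold between the tissues. Cd3d was at 1505 CPM in the spleen and 1559 CPM in the SI, with a UMI in 94.6% of cells of both at equal depth. Cd3g was at 1395 and 1741 CPM and Cd3e at 554 and 851 CPM, higher in the SI, and Cd247, which encodes the zeta chain, at 393 and 270.1 CPM, higher in the spleen. At equal depth, 68.1% of cells in the spleen and 82.2% in the SI held Cd3e, and 53.9% and 42.1% held Cd247. The largest of these 4 differences in level, Cd3e at -0.62 (-0.68 to -0.56), lay within it.

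Genes of tissue exit ran opposite to Cd69 between the tissues. S1pr1, whose product CD69 binds, was at 55.2 CPM in the spleen and 4.17 CPM in the SI (3.73, 3.10 to 4.43). Klf2, which encodes the factor that maintains S1pr1 transcription, was at 270.3 and 25.8 CPM (3.39). S1pr4 was at 103 and 60.0 CPM (0.78), a difference below 2-fold.

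Small intestinal cells are mostly Ccl5-high and splenic cells mostly Ccl5-low, so the tissues were also compared within each state. Ccl5 encodes a chemokine of effector and resident T cells, and a cell was called Ccl5-high when it held at least 10 Ccl5 UMIs per 10000 of its UMIs. This cut placed 224 splenic (15.3%) and 1177 SI cells (92.2%) in the high range. It is a range and not a cell type: 81 splenic and 125 SI cells lay between 5 and 20 per 10000, and 6 SI cells had no Ccl5 UMI against 814 splenic cells. Since the SI distribution was lowest near 50 per 10000, a cut of 50 chosen after seeing the data is also given for the results that rest on the SI cells below 10, which are 100 in all and 88 without a Foxp3 UMI.

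Within Ccl5-high cells, the SI remained higher for the Nr4a genes and Cd69. Nr4a2 was at 33.1 CPM in the spleen and 139 CPM in the SI (-2.07, -2.56 to -1.61), and Nr4a1 at 44.4 and 122 CPM (-1.46, -1.88 to -1.06). Cd69 was at 30.7 and 280.5 CPM (-3.19, -3.70 to -2.73), a wider gap than in all cells. Nr4a3 was at 4.84 and 15.5 CPM (-1.68, -3.17 to -0.48) from 6 UMIs in the spleen, and Egr1 at 56.5 and 112 CPM (-0.99, -1.37 to -0.63). Of the 5 genes with 50 UMIs, 4 were at least 2-fold lower in the spleen, where 9.44% of all genes counted were, and 0 were at least 2-fold higher, where 8.14% were. In the single draw at equal depth the Nr4a3 ratio was -0.98, just under 2-fold, and that of Egr1 was -1.20, past 2-fold. Over all draws the expected shares of cells were 1.41% and 3.20% for Nr4a3 and 10.98% and 20.2% for Egr1. That draw therefore settles neither call. Egr2, with 14 and 32 UMIs, was at 11.3 and 6.97 CPM (0.70, -0.32 to 1.64), and its direction turned at a Ccl5 cut of 20 (-0.33) and of 50 (-0.58).

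Among Ccl5-low cells without a Foxp3 UMI, 984 in the spleen and 88 in the SI, the Nr4a2 levels of the tissues lay closer together, with overlapping intervals. Nr4a2 was at 10.7 CPM (8.16 to 13.7) in the spleen and 18.7 CPM (7.51 to 38.5, from 7 UMIs) in the SI, a log2 ratio of -0.81 (-1.94 to 0.56). At the cut of 50, with 18 UMIs in the SI, the ratio was -1.15 (-1.90 to -0.31). Nr4a1 was at 50.003 and 168 CPM (-1.75, -2.15 to -1.33), Egr1 at 45.1 and 96.1 CPM (-1.09, -1.60 to -0.55) and Cd69 at 109.8 and 360.5 CPM (-1.72, -1.99 to -1.44), so that these 3 kept the direction seen in all cells. At the cut of 50 their ratios were -1.64, -1.23 and -1.82. Egr2 was at 17.1 and 2.67 CPM, a ratio of 2.68 (0.17 to 8.0) that rested on 98 UMIs against 1, and Nr4a3, with 42 and 3 UMIs, was at 7.34 and 8.01 CPM (-0.13). At the cut of 50 these ratios were 3.57 (1.06 to 8.89), again with 1 Egr2 UMI in the SI, and -0.31 (-1.55 to 1.21). Of the 5 genes with 50 UMIs, 3 were at least 2-fold lower in the spleen and 1 at least 2-fold higher, where 10.9% and 10.9% of all genes counted were.

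**Figure D2:**
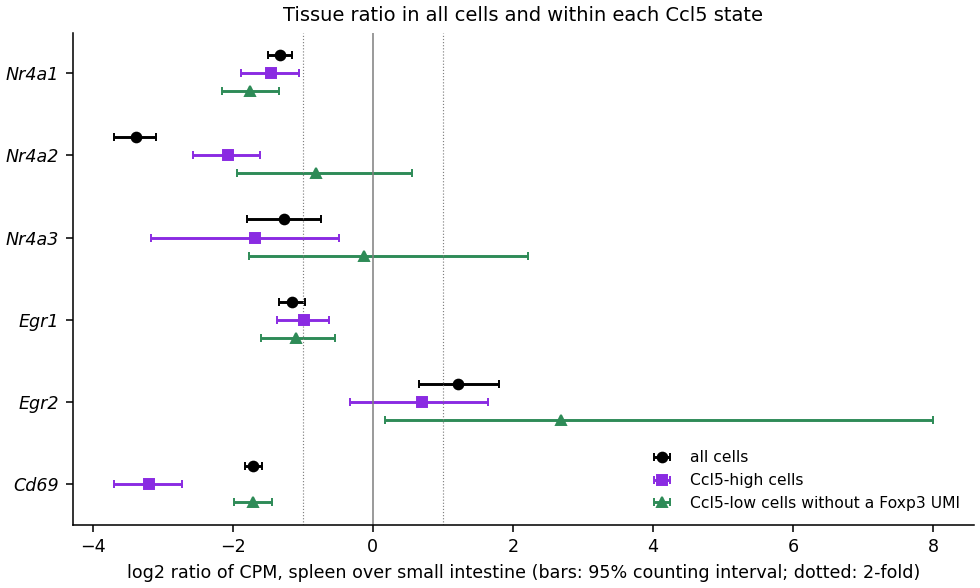
Log2 ratio of CPM, spleen over small intestine, for each gene in all cells (circles), Ccl5-high cells (squares) and Ccl5-low cells without a Foxp3 UMI (triangles), with 95% counting intervals and dotted lines at 2-fold. Nr4a1, Egr1 and Cd69 stay left of 0 in all 3 comparisons, whereas Nr4a2 goes from -3.39 in all cells to -2.07 and -0.81 within the Ccl5 states.

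Within each tissue, Nr4a2 was higher in Ccl5-high than in Ccl5-low cells. In the spleen it was at 10.7 CPM (8.16 to 13.7) in the 984 Ccl5-low and 36.1 CPM (25.8 to 49.2) in the 204 Ccl5-high cells without a Foxp3 UMI (1.76, 1.15 to 2.36). In the SI it was at 18.7 CPM in the 88 low cells and 141 CPM (130.0 to 152) in the 1161 high cells (2.91, 1.86 to 4.23), or at 27.0 and 148 CPM (2.45, 1.78 to 3.22) with the cut of 50. In the share of cells at equal depth, Nr4a2 went from 1.97% to 6.63% in the spleen and from 5.13% to 21.5% in the SI. Its part of the Nr4a and Egr UMIs went from 8.18% to 22.2% and from 6.36% to 35.3%.

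Cd69 went against Ccl5 in the spleen, from 109.8 CPM (101 to 119) in low cells to 33.4 CPM (23.5 to 46.0) in high cells (-1.72, -2.24 to -1.24), and from 19.1% to 6.63% of cells at equal depth. In the SI it was at 360.5 and 281 CPM (-0.36, -0.62 to -0.09), with 41.0% and 37.3% of cells. Nr4a1 was at 50.003 and 46.9 CPM in the spleen (-0.09, -0.55 to 0.34) and at 168 and 122 CPM in the SI (-0.47, -0.84 to -0.07). Egr1 was at 45.1 and 61.4 CPM in the spleen (0.44, 0.04 to 0.84) and at 96.1 and 113 CPM in the SI (0.23, -0.25 to 0.77). The SI ratio of Egr1 turned to -0.32 in the single draw at equal depth, with a UMI in 25.6% of low and 18.4% of high cells. Over all draws the expected shares were 20.3% and 20.4%, so the turn rests on that draw. At the cut of 50 the SI ratios were -0.45 for Cd69, -0.40 for Nr4a1 and 0.06 for Egr1. For Nr4a1 and Egr1, Ccl5-low and Ccl5-high cells differed by less than 2-fold in each tissue.

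In the spleen, Nr4a2 was the 1 gene of 5 counted that was at least 2-fold higher in Ccl5-high cells, where 2.34% of all genes counted were, and Cd69 the 1 that was at least 2-fold lower, where 3.41% were. In the SI, 1 of 5 was at least 2-fold higher, again Nr4a2, where 6.99% of genes were, and 0 were at least 2-fold lower, where 6.33% were. Splenic Egr2 was at 17.1 CPM in low and 12.6 CPM in high cells (-0.44, -1.36 to 0.38), and with the cut of 50 at 17.8 and 5.25 CPM (-1.76, -3.66 to -0.36), from 4 UMIs in the high cells. Beside these values, the myeloid marker sum was 16.4 CPM in Ccl5-low and 41.5 CPM in Ccl5-high splenic cells and 24.0 and 73.4 CPM in SI ones, and the dissociation list 224 and 301 CPM and 646 and 686 CPM. In the SI, Cd8a and Cd8b1 summed to 2.67 CPM in Ccl5-low and 389 CPM in Ccl5-high cells, and in the spleen to 13.99 and 5.42 CPM. Their part in the Ccl5 differences was not tested, and without cells holding a B cell or myeloid marker UMI the Nr4a2 ratio was 1.65 in the spleen and 3.08 in the SI. Without cells holding a Cd8a or Cd8b1 UMI it was 1.80 and 2.80.

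Cells with a Foxp3 UMI were compared with Ccl5-low splenic cells without one. Foxp3 encodes the lineage factor of Treg cells. Of 1468 splenic cells, 280 held a Foxp3 UMI and 260 of them were Ccl5-low, and the mRFP reporter transcript was at 27.5 CPM in the 280 and at 6.44 CPM in the others. A cell without a Foxp3 UMI can still be a Foxp3+ cell, all the more because the median depth was 7834 UMIs in the 260 cells and 5085 in the 984 without. Nr4a1 was at 53.8 CPM (44.6 to 64.5) with and 50.003 CPM (44.4 to 56.1) without a Foxp3 UMI (0.11, -0.22 to 0.42), and Egr1 at 57.5 and 45.1 CPM (0.35, 0.03 to 0.66). The sum of the Nr4a and Egr genes was 132 and 130.4 CPM (0.02, -0.19 to 0.21), an interval that lies within 2-fold either way. At equal depth the ratio was 0.42 for Nr4a1 and 0.24 for the sum. The cells with a Foxp3 UMI came from several clusters, given below.

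Nr4a2, Nr4a3 and Cd69 had lower values in cells with a Foxp3 UMI. Nr4a2 was at 4.56 CPM (2.19 to 8.39, from 10 UMIs) against 10.7 CPM (-1.23, -2.36 to -0.25), Nr4a3 at 3.65 against 7.34 CPM (-1.01, -2.31 to 0.10) and Cd69 at 61.6 against 109.8 CPM (-0.83, -1.11 to -0.56). Egr2 was at 12.3 against 17.1 CPM (-0.48, -1.15 to 0.15), and its ratio turned to 0.39 in the single draw at equal depth. Over all draws its expected shares were 2.69% with and 3.54% without a Foxp3 UMI, the direction of the CPM values. Of 6 genes counted, 2 (Nr4a2 and Nr4a3) were at least 2-fold lower, where 2.3% of all genes counted were, and 0 at least 2-fold higher, where 1.62% were, and the interval of Nr4a3 included no difference. In the SI 28 cells held a Foxp3 UMI, and Nr4a1 was at 141 CPM (87.0 to 215), Nr4a2 at 26.8 CPM (7.30 to 68.6, from 4 UMIs), Egr1 at 67.0 CPM and Cd69 at 248 CPM in them.

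**Figure D3:**
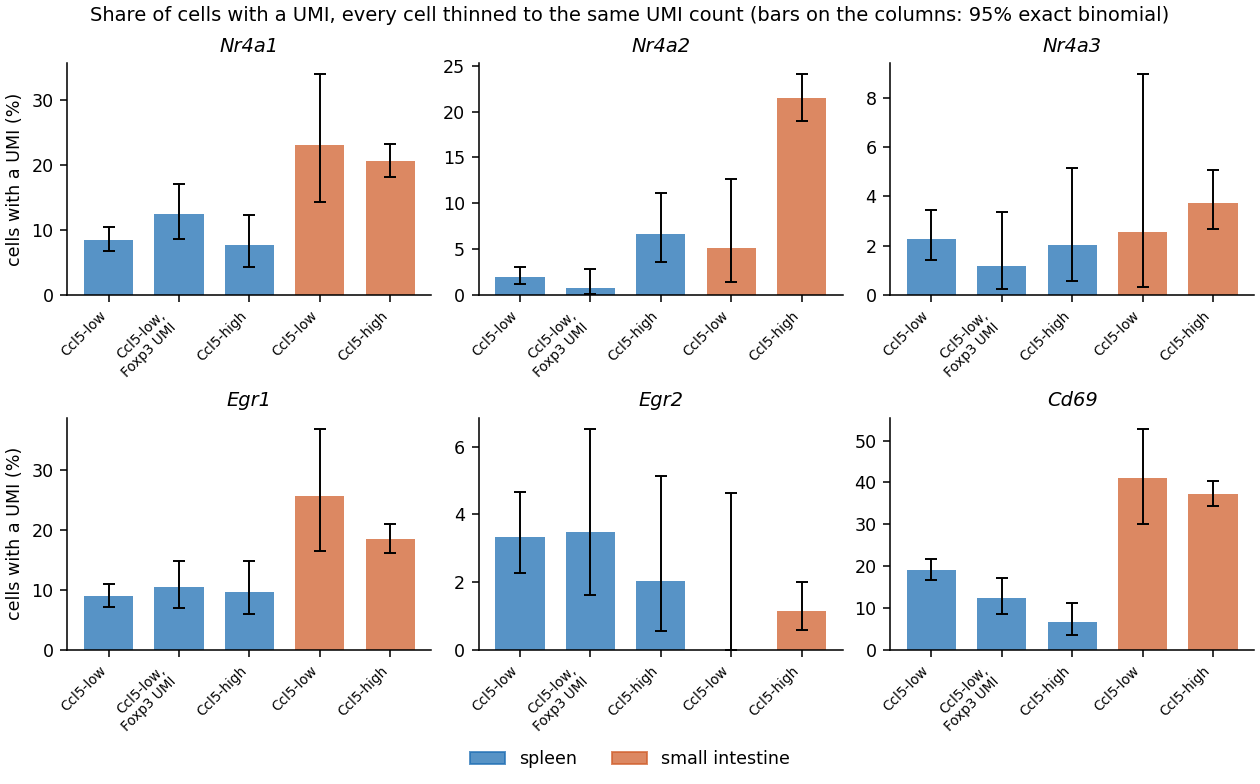
Share of cells with a UMI of each gene after every cell was thinned to 2094 UMIs, for splenic cells (Ccl5-low without a Foxp3 UMI, Ccl5-low with one, Ccl5-high without one) and SI cells (Ccl5-low and Ccl5-high without a Foxp3 UMI), with exact binomial intervals; vertical scales differ between genes. The Nr4a2 share is highest in SI Ccl5-high cells (21.5%), whereas the Cd69 share is lowest in splenic Ccl5-high cells (6.63%).

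Clusters made without these genes and without the TCR-induced list gave a finer view, with 7 clusters in each tissue, numbered by size. The leading genes named below were picked from the 10 of each cluster and are not always its first ones. In the spleen the leading genes were Tnfsf8, Tbc1d4, Cxcr5 and Il21 for cluster 1 (306 cells, Tfh-like by 3 of its markers), Lgals3, Gzmb and S100a4 for cluster 2 (259), Rrm2, Birc5 and Top2a for cluster 3 (224, cycling-like), Pik3ip1, Ccr7 and Lef1 for cluster 4 (218), Itgb8, Foxp3 and Il2ra for cluster 5 (186), Ccl5, Ccl3 and Gzmk for cluster 6 (145) and Cnn3, Bach2 and Itm2a for cluster 7 (130). In the SI they were Ifitm2 and Plac8 for cluster 1 (273), S100a6 and Ahnak for cluster 2 (235), Sv2c and Ramp3 for cluster 3 (187), Cd7 and Itgae for cluster 4 (183), Il17a and Tmem176b for cluster 5 (175), Cd8b1 and Cd8a for cluster 6 (118) and Ccl4, Ccl3 and Ifng for cluster 7 (106). Splenic cluster 6 held 4 markers listed for the clusters the paper calls C1 among its leading genes, and is called the Ccl5 cluster here. Clusters resting on fewer than 3 markers are given by number.

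The CPM values of Nr4a1 and Egr1 were higher in every SI cluster than in every splenic one, though the intervals of the clusters at the margin overlapped. Nr4a1 ran from 24.7 CPM (cluster 4) to 82.0 CPM (cluster 5) in the spleen and from 84.0 CPM (cluster 1) to 212 CPM (cluster 7) in the SI. Egr1 ran from 30.6 CPM (cluster 7) to 68.5 CPM (cluster 6) in the spleen and from 70.2 CPM (cluster 6) to 173 CPM (cluster 4) in the SI. For each of these genes all 6 neighbours in the order of either tissue had overlapping intervals, so only clusters far apart in the order are separated. In the share of cells at equal depth, taken from a single random draw, some clusters were out of that tissue order. Nr4a1 was found in 19.6% of splenic cluster 5, against 15.7% of SI cluster 1 and 13.8% of SI cluster 6. Over all draws the expected shares were 14.76%, 16.2% and 14.79%, in the tissue order. Egr1 was found in 13.4% of splenic cluster 1, against 11.9% of SI cluster 6. Its expected shares over all draws were 11.4% and 17.1%, also in the tissue order.

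Nr4a2 was uneven within each tissue. In the SI it was at 96.7 to 214 CPM in 6 clusters and at 11.6 CPM (5.02 to 22.9, from 8 UMIs) in cluster 5, the Il17a cluster, which also held the lowest Ccl5 (2886 CPM against 40915 to 73860 CPM in the others) and the most Foxp3 (46.5 CPM). Yet Nr4a1 was at 153 CPM, Egr1 at 105 CPM and Cd69 at 368 CPM in that cluster, so that Nr4a2 made up 4.19% of its Nr4a and Egr UMIs against 26.2% to 51.2% elsewhere in the tissue. In the spleen Nr4a2 was highest in cluster 6, the Ccl5 cluster (39.2 CPM, 26.8 to 55.3), and at 5.80 to 20.7 CPM in the others. The Cd8b1 cluster of the SI had the largest part, 51.2% (44.3 to 58.0), of its Nr4a and Egr UMIs from Nr4a2 and the lowest Egr1 level of the tissue.

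Cd69 was the 1 gene of the 7 with neighbours in the splenic order whose intervals were separate, in 3 of 6 cases. It was at 248 CPM (217 to 282) in cluster 4, which also held the most Klf2 (774 CPM) and S1pr1 (191 CPM) of all 14 clusters, at 140 CPM in cluster 7 and 129.8 CPM in cluster 1, and then at 59.0 CPM or less, down to 24.5 CPM (14.9 to 37.8) in cluster 6. This gave a 10.1-fold range in the spleen against 2.01-fold in the SI, where Cd69 ran from 196 CPM (cluster 7) to 394 CPM (cluster 4). Egr2 was highest in the Tfh-like splenic cluster 1 (35.3 CPM, 26.1 to 46.7), followed by cluster 4 (25.8 CPM), and lowest in clusters 2 (3.62 CPM) and 6 (4.89 CPM). In the SI no cluster exceeded 12.8 CPM of Egr2. Nr4a3 was highest in splenic cluster 7 (16.4 CPM, 9.17 to 27.0) and SI cluster 7 (25.5 CPM, 12.2 to 46.9).

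The cycling-like cluster 3 of the spleen was the deepest, with a median of 9600 UMIs per cell, and held Nr4a1 at 47.8 CPM and Egr1 at 46.9 CPM, both near the splenic level. Splenic cells with a Foxp3 UMI lay mostly in cluster 5 (95 cells), cluster 3 (95) and cluster 2 (61). Over all cells of these clusters the Nr4a and Egr sum was 172 CPM (150 to 197), 117 CPM and 78.5 CPM. The dissociation list was at 157 to 290.0 CPM in splenic and at 634 to 872 CPM in 6 SI clusters, but at 229 CPM in the SI Cd8b1 cluster 6. That list holds Dusp1, also a TCR target, and its genes are not given singly by cluster. The part of the list in the cluster levels was not tested. At equal depth, the lowest cluster shares were 2.88% for Nr4a1 (splenic cluster 4), 0.96% for Nr4a2 (splenic cluster 4), 4.69% for Egr1 (splenic cluster 7) and 3.60% for Cd69 (splenic cluster 6), and in the SI 13.8% for Nr4a1, 3.95% for Nr4a2, 11.9% for Egr1 and 30.2% for Cd69.

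**Figure D4:**
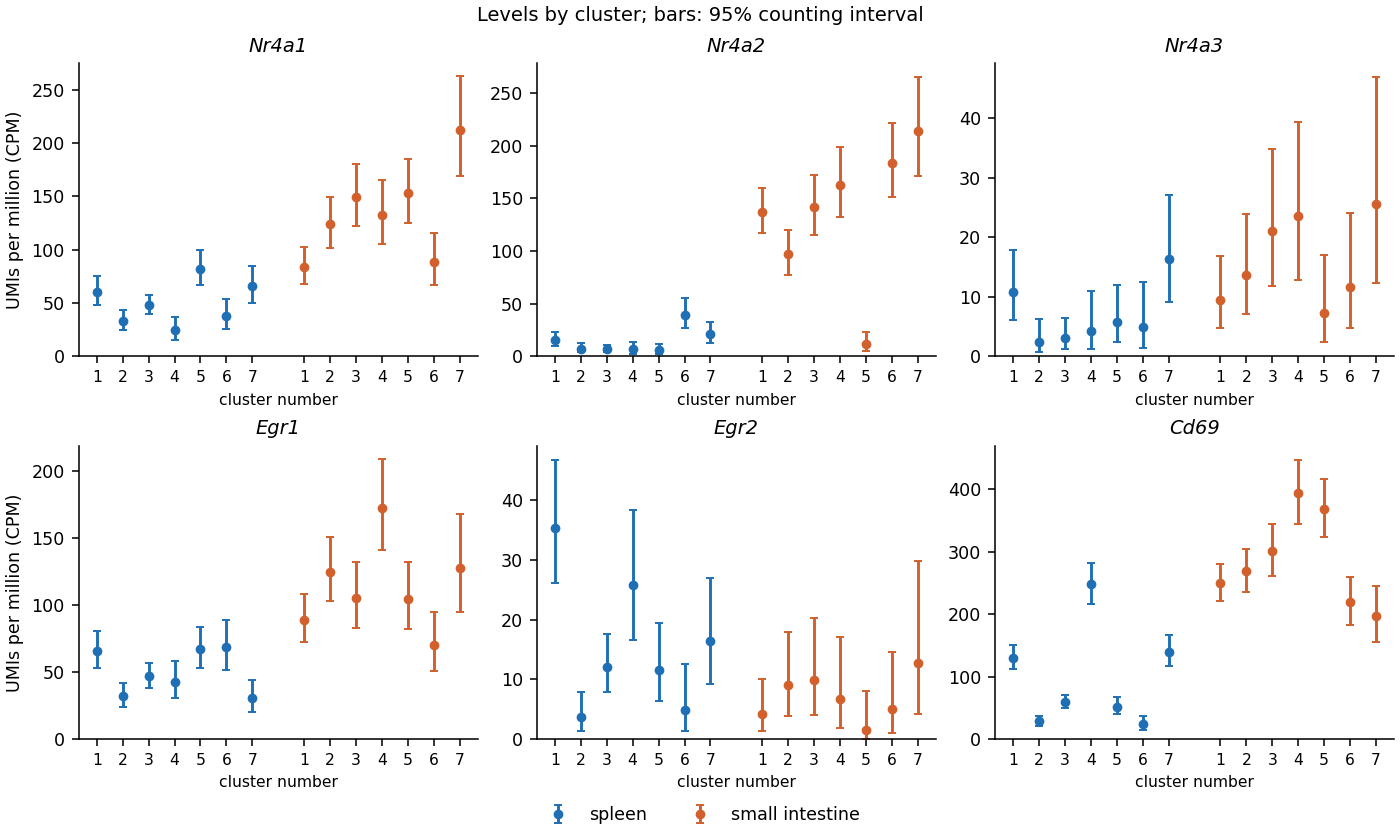
UMIs per 1000000 of each gene in the 7 splenic (left) and 7 SI clusters (right), numbered by size within a tissue, with 95% counting intervals; vertical scales differ between genes. The CPM values of Nr4a1 and Egr1 are higher in all SI clusters than in any splenic one, with overlapping intervals at the margin. Nr4a2 falls to 11.6 CPM in SI cluster 5, and Cd69 peaks at 248 CPM in splenic cluster 4 within the spleen.

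Co-detection asked whether the genes marked the same cells. Egr3 was left out of these counts. At equal depth, 59 of 1438 splenic cells (4.10%) held UMIs of 2 or more Nr4a and Egr genes, where 2.21% would if independent. In the SI 154 of 1149 cells (13.4%) did, where 12.1% would. In the spleen 79.5% of cells held none and 16.4% held 1, and in the SI 51.2% and 35.4%. Over the 15 pairs among 6 genes (Egr3 left out), the cells with both genes were set against the product of their shares. In the spleen they were 0.71 (Nr4a2 and Cd69, 4 cells) to 4.57 times it (Nr4a2 and Egr2, 5 cells). In the SI they were 0 (Nr4a3 and Egr2, 0 cells) to 2.34 times it (Nr4a2 and Nr4a3, 19 cells). Several SI pairs were near the product, such as Nr4a2 and Cd69 (1.001), Nr4a3 and Egr1 (1.03) and Egr1 and Cd69 (1.04). Other gene pairs were not counted, so these values have no background.

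In the spleen, 5 of the 15 pairs had separate intervals between cells with and without the first gene in the single draw. They were Nr4a1 and Egr1, Nr4a1 and Egr2, Nr4a2 and Egr2 (5 cells with both), Egr1 and Egr2, and Egr2 and Cd69. The share of other gene pairs with separate intervals was not counted. Egr1 was found in 22.3% (15.5 to 30.4) of splenic cells with Nr4a1 and 7.88% (6.47 to 9.47) of those without, and Egr2 in 12.9% (7.68 to 19.8) of cells with Egr1 and 2.14% of those without. In the SI the same comparison for Nr4a1 and Egr1 gave 21.4% (16.4 to 27.1) and 18.2% (15.8 to 20.9). The 1 SI pair with separate intervals was Nr4a2 and Nr4a3, with Nr4a3 in 8.33% (5.09 to 12.7) of cells with Nr4a2 and 2.39% (1.503 to 3.59) of those without. Within splenic Ccl5-low cells without a Foxp3 UMI, Nr4a1 and Egr1 were found together 2.46 times as often as the product of their shares. Within SI Ccl5-high cells the value was 1.16 times. In those splenic cells the intervals of Nr4a2 and Egr2, with 3 cells holding both, were no longer separate. Correlations of detection were weak, 0.14 for Nr4a1 and Egr1 in the spleen (1438 cells) and 0.03 in the SI (1149 cells), and the cells of a tissue share 1 library.

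**Figure D5:**
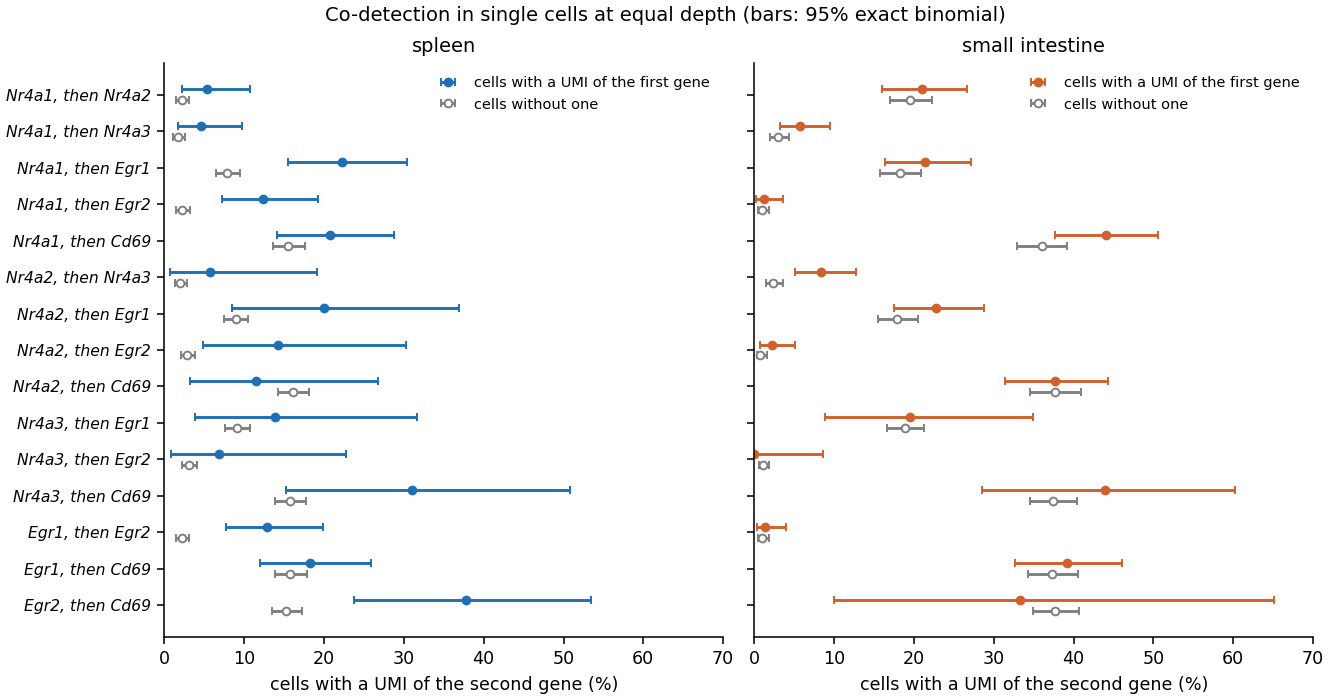
Share of cells with a UMI of the second gene of a pair among cells with (filled) and without (open) a UMI of the first gene, at equal depth, with exact binomial intervals. In the spleen Egr1 was found in 22.3% of cells with Nr4a1 and 7.88% of those without, whereas in the SI the values are 21.4% and 18.2%.

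Genes whose UMIs followed those of the Nr4a and Egr sum across single cells were sought among 2158 genes found in at least 10% of cells of each tissue at equal depth. By the mean of the Pearson correlations within 1438 splenic and 1149 SI cells, the 10 closest were Junb (0.12), Rilpl2 (0.12), Fau (0.10), Zfp36l1, Malat1, Prkca, Ccl4, Malt1, Samsn1 and Bcl2a1b (0.08), against a median of -0.01 for all ranked genes. Among the 10, the tissues were furthest apart for Junb (0.21 in the spleen, 0.04 in the SI) and Ccl4 (0.04 and 0.14). Cd69 ranked 18 (0.07). For Cd69 itself the closest were the AP-1 gene Fos (0.20, with 0.19 in the spleen and 0.21 in the SI), Pdcd4 (0.12) and Jun (0.11). All these correlations are weak, rest on sparse counts within 1 library per tissue and are given as a description.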

How the data were processed

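Sorted IL-10eGFP+ CD4+ T cells were measured as single cells, in 1 library from spleen and 1 from small intestine (SI). The authors trimmed reads with Trimmomatic and ran Cell Ranger on mm10, and deposited raw UMI counts per gene and cell (versions not given in the sources used here; mm8 is also named in the submitters' processing notes).

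From these counts, barcodes with log UMI totals or log gene numbers over 3 median absolute deviations under their library's median, or with a mitochondrial share as far above it, and cells assigned to G2/M by cyclone (scran 1.30.0, R 4.3.3, 1000 iterations) were left out. Counts were summed per group and scaled to CPM. Shares of cells were taken after thinning to 2094 UMIs, the 10th percentile of the shallower library, which left out 30 splenic and 128 small intestinal cells. The thinning was a single random draw, and expected shares over all draws came from the hypergeometric distribution. Clusters came from a Louvain graph (10 neighbours, 20 principal components) per tissue without the 7 genes and the TCR-induced list. A cluster's leading genes were the 10 highest by fold over the other clusters of its tissue. Only genes found in at least 25% of its cells were ranked, and the text names some of the 10. Exact intervals were computed with scipy 1.17.1. Those of ratios were checked on simulated Poisson counts, the model they assume, so the check does not cover UMIs gathered in few cells. No p-value is given, as cells are not replicates, and a gene was called by 2-fold or more with at least 50 UMIs over both groups. Doublets were not called. Alternatives varied the cell filter, the depth, the scaling, the Ccl5 and Foxp3 cuts, the UMI minimum and the genes used for clustering. All 7 genes are described, with the 3 highest and 3 lowest of the TCR-induced list, the Cd69 partner and CD3 genes (1 partner gene is not reported here) and the closest genes by correlation; Nab2 was added after its value was seen. Genes and lists were chosen with earlier results of these data known.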

Additional observations from a re-analysis of the deposited data

How the results depend on the processing

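For the 6 genes with more than 3 UMIs, 404 alternative log2 ratios were computed over the 6 comparisons, and 385 stayed within the counting interval of the value reported, 19 moved out of it and 0 ratios beyond 2-fold changed direction. For the Nr4a and Egr sum 63 of 68 stayed within it. The sum for spleen over small intestine moved to -1.39 at equal depth and -1.67 without cells holding a B cell or myeloid marker UMI, an alternative chosen after seeing the data. The sum for splenic Ccl5-high over Ccl5-low moved to 0.059 at a Ccl5 cut of 20, and that for splenic Foxp3 UMI over none to 0.24 at equal depth and -0.20 with at least 2 Foxp3 UMIs, which turned its direction. The causes were not tested. The Egr2 ratio was the least stable. It was 1.92 in the single draw at equal depth for spleen over small intestine, and -0.58 within Ccl5-high cells at a Ccl5 cut of 50. Nr4a2 for Foxp3 UMI over none ran from -1.91 (pooled size factors) to -0.93 (all barcodes). Leaving the 20 most abundant genes of either library, Ccl5 among them, out of the total gave -1.60 for the sum between tissues. Counts of genes at least 2-fold apart depended on the UMI minimum. Lowering it from 50 to 1 raised them from 2168 to 6021 for spleen over small intestine, from 1263 to 5452 within Ccl5-high and from 1583 to 6480 within Ccl5-low cells, from 430 to 4097 and from 903 to 5900 for Ccl5-high over Ccl5-low in spleen and small intestine, and from 305 to 3455 for Foxp3. At a minimum of 20 the last 5 were 1926, 2461, 887, 1712 and 625. At the 25th percentile of depth (2886 UMIs) shares rose, for Cd69 to 19.0% and 45.3%. No replicate could be left out, since each tissue is 1 library. No paired analysis was possible because the groups compared share fewer than 2 replicate numbers. Depth limits Egr3 (1 UMI per library), small intestinal Egr2, and Nr4a2 and Nr4a3 in small intestinal Ccl5-low cells (7 and 3 UMIs).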

Other observations

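The sort gate is IL-10eGFP, and the 7 genes were also set beside Il10 transcript itself, at equal depth. In the spleen, 661 cells held an Il10 UMI and 777 did not. Egr1 was found in 11.9% (9.58 to 14.7) of cells with Il10 and 6.82% (5.15 to 8.83) of cells without (log2 ratio of levels 0.70, 0.23 to 1.17), and Nr4a1 in 11.2% and 7.21% (0.47, 0.02 to 0.93). Cd69 was found in 12.7% (10.3 to 15.5) of cells with Il10 and 18.8% (16.1 to 21.7) of cells without (-0.55, -0.89 to -0.21). Among splenic cells without a Foxp3 UMI the log2 ratios were smaller, 0.43 (-0.10 to 0.96) for Egr1, 0.20 (-0.32 to 0.72) for Nr4a1 and -0.48 (-0.85 to -0.11) for Cd69, and those of Egr1 and Nr4a1 included 0. Splenic clusters 4 and 7 held the least Il10 (83.7 and 108 CPM, against 412 to 700 CPM in the others). They also held the most splenic Cd69 (248 and 140 CPM). The part of the clusters in the Il10 differences was not tested. In the SI, with 681 and 468 cells, Egr1 was found in 19.4% and 18.2% (0.18, -0.17 to 0.55), Nr4a1 in 21.7% and 20.3% (0.19, -0.15 to 0.53) and Cd69 in 38.2% and 37.0% (0.11, -0.11 to 0.33). Whether the splenic and SI values differ was not tested. The eGFP transcript itself had 7 UMIs in the spleen and 6 in the SI and was too scarce to divide cells.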
